A study of Mus musculus with 6 samples.

Results

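The acyl-CoA dehydrogenases examined here are 10 genes, Acads, Acadm, Acadl, Acadvl, Acadsb, Acad8, Acad9, Acad10, Acad11 and Ivd, taken by their symbols in the platform annotation from 22180 genes measured in mouse liver. Each of the 10 had 1 probe set on the array, and 0 of these were shared with another symbol. The Balb/cBy group, which the series calls KD, held 3 male mice, and the Balb/c group, which the series calls WT, held 3 male mice. Both substrains were 20 weeks old and had been on a high-fat diet (58% of the energy from fat) since 8 weeks of age, for 12 weeks. Total liver RNA of each mouse was hybridized to 1 Affymetrix whole-transcript array, and each array is labelled a biological replicate. No group on an ordinary diet was analysed here, so every value describes fat-fed liver. The labels do not name the gene that KD refers to. As background, BALB/cBy mice are known to carry a spontaneous deletion in Acads that leaves them without the enzyme, and the 2 substrains also differ elsewhere in the genome.

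Acyl-CoA dehydrogenases are flavoproteins that take electrons from an acyl-CoA and open each round of fatty acid β-oxidation in mitochondria. Their electrons pass to electron transfer flavoprotein and from there to the respiratory chain. Members are told apart by the chain they accept: short, medium, long or very long straight chains, or the branched chains left from leucine, isoleucine and valine. In liver this step feeds the making of ketone bodies and is active when fat is the main fuel.

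Levels below are log2 RMA signals, in which 1 unit is a 2-fold difference, and differences are Balb/cBy minus Balb/c. All 10 members lay above 8.02 on every array, the level under which 95% of 1105 olfactory receptor genes lay, and their lowest value was 8.74. The arrays were alike in signal, with medians from 7.98 to 8.03. Hepatocyte markers (Alb, Apoa1, Ttr, Serpina1a and Ahsg) were all above the olfactory receptor level. Their summed level ran from 15.92 to 16.00 in Balb/cBy and from 15.94 to 15.97 in Balb/c. Serpina1a, the dimmest of the 5, weighs least in that sum and differed by 0.55 ± 0.21 (SE, n = 3 each). Its groups overlapped, and its limma p was 0.0277 before adjustment and 0.999 after it. Differences of the others ran from -0.04 (Ttr) to 0.03 (Ahsg). In whole liver, fewer cells of a type and less RNA per cell cannot be told apart.

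Acads encodes short-chain acyl-CoA dehydrogenase, which acts on butyryl-CoA in the last rounds of β-oxidation. Its level was 10.60, 10.79 and 10.93 on the Balb/cBy arrays, against 11.53, 11.46 and 11.28 on the Balb/c arrays. Every Balb/cBy array was below every Balb/c array, and the gap between the nearest arrays was about as wide as the spread inside a group. The Acads signal in Balb/cBy was 63.6% of that in Balb/c, with a 95% interval from 52.7% to 76.8%. On the log2 scale the difference was -0.65 ± 0.12 (SE, n = 3 each, limma). Acads ranked 39 among 23521 probe sets by limma's unadjusted p, and it was 1 of 29 genes with a difference as low as this or lower.

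The Acads difference did not pass the adjustment over all probe sets (limma, Benjamini-Hochberg adjusted p = 0.319), and the exact two-sided permutation test gave p = 0.1, the smallest that 3 against 3 arrays can give. None of the 23521 probe sets passed at 0.05 (0.0% called), while 899, or 3.82%, had an unadjusted p under 0.05. Which stretch of the transcript the probes read was not given, and the signal therefore does not tell intact from shortened RNA and is no check of the genotype.

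**Figure D1:**
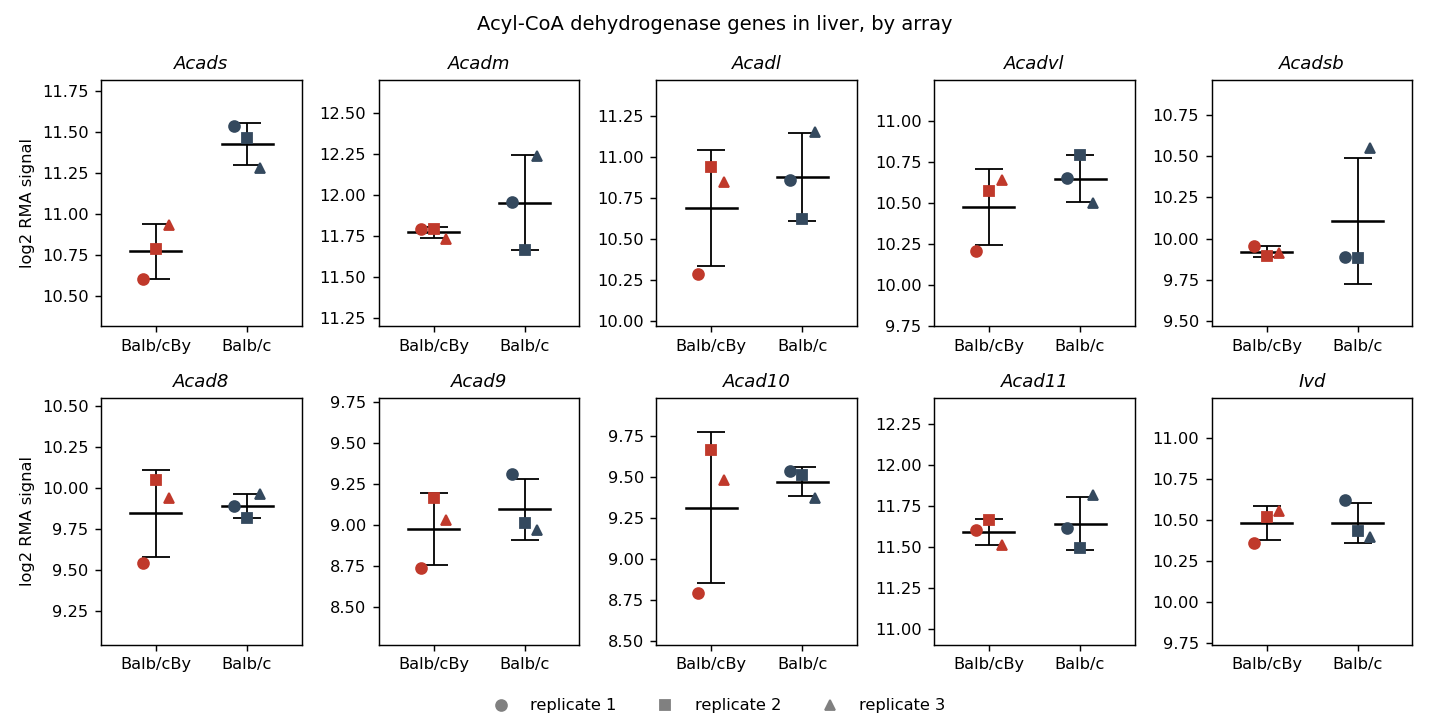
Log2 RMA signal of the 10 genes on each array, Balb/cBy left (red) and Balb/c right (blue), with the marker shape giving the replicate and lines the mean ± SD (n = 3). Each panel spans the same number of log2 units; Acads alone has groups that do not overlap, and Balb/cBy replicate 1 is the lowest array in 7 of the 10 panels.

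The sequence before the Acads start is shown with those of Acadm and Acadvl, enzymes for medium and very long straight chains, for reading side by side. Each is the 250 bases before the start in RefSeq (GRCm38.p6), 5′ to 3′ on the strand of the gene. Acads lies at chr5:115119347-115119596 (minus strand), Acadm at chr3:153944644-153944893 (minus strand) and Acadvl at chr11:70015429-70015678 (minus strand). Capitals mark AGGTCA, the core hexamer bound by nuclear receptors such as the PPARs, and GGGCGG, the GC box bound by Sp1 and related factors, each on either strand.
Acads: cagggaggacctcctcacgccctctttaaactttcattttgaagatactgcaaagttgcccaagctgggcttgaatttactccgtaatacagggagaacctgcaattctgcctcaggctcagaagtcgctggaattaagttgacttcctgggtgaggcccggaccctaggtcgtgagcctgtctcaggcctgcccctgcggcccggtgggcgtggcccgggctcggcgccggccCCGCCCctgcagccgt
Acadm: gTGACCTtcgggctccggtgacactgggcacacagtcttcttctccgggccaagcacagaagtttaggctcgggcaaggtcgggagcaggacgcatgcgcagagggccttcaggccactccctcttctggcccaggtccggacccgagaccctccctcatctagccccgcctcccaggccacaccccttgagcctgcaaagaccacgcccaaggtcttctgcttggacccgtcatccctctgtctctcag
Acadvl: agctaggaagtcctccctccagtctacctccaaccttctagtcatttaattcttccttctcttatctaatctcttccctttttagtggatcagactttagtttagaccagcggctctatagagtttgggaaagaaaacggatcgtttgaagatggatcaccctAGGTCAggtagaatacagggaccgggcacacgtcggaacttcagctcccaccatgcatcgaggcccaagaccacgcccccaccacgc

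The Acads window held 1 GC box, 16 bases before the start, and 0 hexamers. Acadm held 1 hexamer 249 bases before the start and Acadvl 1 at 87 bases before it. Of the 9 members found in the promoter table, only Acadm and Acadvl held the hexamer, which 14.0% of 32851 promoter windows held. The window of Acadl, the enzyme for long straight chains, is not shown and held 4 GC boxes and 0 hexamers. The hexamer of Acadm is part of AAGGTCA, the form preferred by estrogen-related receptors, present in 4.08% of windows. GC boxes were in the windows of Acads, Acadl, Acadsb, Acad8 and Acad11, against 32.7% of all windows. The CCAAT box was in those of Acad8, Acad11 and Ivd (33.8% of windows). The NRF1 palindrome was in that of Acad10 (3.74% of windows). A match of letters is not a measured binding site.

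The enzymes for longer straight chains were slightly below Balb/c on average, with groups that overlapped in every case. Acadm encodes medium-chain acyl-CoA dehydrogenase. Its level was 11.80, 11.79 and 11.73 in Balb/cBy, against 11.96, 11.67 and 12.24 in Balb/c. The Balb/cBy arrays sat close together inside the range of the Balb/c arrays, and the difference was -0.18 ± 0.14 (SE, n = 3 each), or 88.2% of Balb/c with an interval from 70.2% to 111%. Acadl encodes long-chain acyl-CoA dehydrogenase, which mouse liver uses for long and unsaturated chains. It read 10.29, 10.94 and 10.85 in Balb/cBy, against 10.86, 10.62 and 11.15 in Balb/c. Replicate 1 was the low one in Balb/cBy and replicate 2 in Balb/c, while the other arrays mingled. The Acadl difference was -0.19 ± 0.20 (SE, n = 3 each).

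Acadvl encodes very-long-chain acyl-CoA dehydrogenase, the form bound to the inner mitochondrial membrane that takes the longest chains. Its level was 10.21, 10.57 and 10.64 in Balb/cBy, against 10.65, 10.79 and 10.50 in Balb/c. Again Balb/cBy replicate 1 stood low and the other 5 arrays lay within a narrow band, for a difference of -0.18 ± 0.14 (SE, n = 3 each). Acad9 is close to Acadvl in sequence and is known mainly as an assembly factor of respiratory complex I. It read 8.74, 9.17 and 9.03 in Balb/cBy, against 9.31, 9.01 and 8.97 in Balb/c. The highest and the lowest arrays were the replicates numbered 1, and the difference was -0.12 ± 0.14 (SE, n = 3 each). None of Acadm, Acadl, Acadvl and Acad9 passed limma (adjusted p = 0.999 for each), and their exact permutation p-values ran from 0.4 to 0.6.

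The 3 enzymes of branched-chain amino acid breakdown had overlapping groups, with differences from -0.19 for Acadsb to -0.0047 for Ivd. Ivd encodes isovaleryl-CoA dehydrogenase of the leucine pathway. It was 10.36, 10.52 and 10.55 in Balb/cBy, against 10.62, 10.43 and 10.40 in Balb/c. These 6 values covered 0.26 log2 units, the narrowest spread of the 10 members, and the difference was -0.0047 ± 0.10 (SE, n = 3 each), with an interval from 84.4% to 118% of Balb/c. Acad8 encodes isobutyryl-CoA dehydrogenase of the valine pathway. It read 9.55, 10.05 and 9.94 in Balb/cBy, against 9.89, 9.81 and 9.96 in Balb/c, a difference of -0.04 ± 0.14 (SE, n = 3 each). Acadsb encodes the short/branched-chain enzyme of the isoleucine pathway. It read 9.96, 9.89 and 9.91 in Balb/cBy, against 9.89, 9.88 and 10.55 in Balb/c. Balb/c replicate 3 alone stood apart, and the Acadsb difference of -0.19 ± 0.18 (SE, n = 3 each) turned to 0.037 without that array.

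Acad10 and Acad11 encode larger proteins that join a kinase-like domain to the dehydrogenase. Acad10 read 8.80, 9.67 and 9.48 in Balb/cBy, against 9.54, 9.51 and 9.37 in Balb/c. Its low Balb/cBy replicate 1 gave the widest spread within a group of any member (SD 0.46), and the difference was -0.16 ± 0.21 (SE, n = 3 each), or 0.10 without that array. Acad11 read 11.60, 11.66 and 11.51 in Balb/cBy, against 11.62, 11.49 and 11.82 in Balb/c, a difference of -0.05 ± 0.11 (SE, n = 3 each). The limma adjusted p was 0.999 for Ivd, Acad8, Acadsb, Acad10 and Acad11, with exact permutation p-values from 0.8 to 1.0. The intervals leave room for modest changes: the widest, of Acad10, ran from 64.5% to 125% of Balb/c, and the narrowest of the 9 genes beside Acads was that of Ivd.

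**Figure D2:**
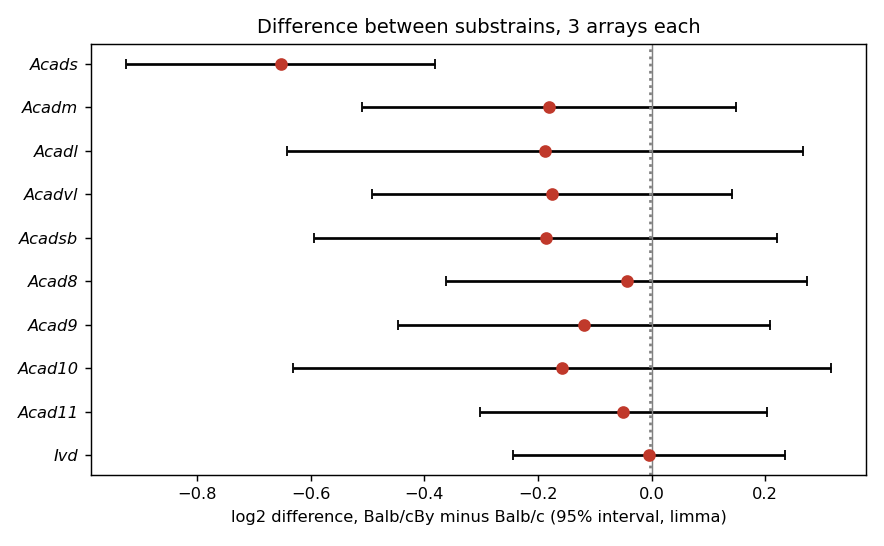
Log2 difference of each gene, Balb/cBy minus Balb/c (dots), with limma's 95% interval (bars); the dotted line is the median of all genes, -0.0028. The interval of Acads, -0.93 to -0.38, lies below 0, and those of the other 9 genes include 0.

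Counted as a family, all 10 members had a mean below that of Balb/c, against 50.9% of all genes, with a median difference of -0.17 beside -0.0028 over all genes. Members without overlap between the groups numbered 1, Acads, against 3.51% of all genes lower without overlap. Members past limma's adjusted p of 0.05 numbered 0, and 1, Acads, had an unadjusted p under 0.05, where 1.18% of probe sets were lower at that level. The direction of the members beside Acads went mostly with Balb/cBy replicate 1 and Balb/c replicate 3. Balb/cBy replicate 1 was the lowest of the 6 in Acads, Acadl, Acadvl, Acad8, Acad9, Acad10 and Ivd, or 7 of 10 members, while it was lowest in 14.7% of all genes. Acadm, Acadsb and Acad11 instead went with Balb/c replicate 3, and without that array they differed by -0.038, 0.037 and 0.037. The median deviation of the 10 members from their own means was -0.31 on Balb/cBy replicate 1, 0.04 and 0.03 on the other Balb/cBy arrays, and 0.09, -0.05 and 0.14 on Balb/c replicates 1, 2 and 3. Over all genes the median deviation of Balb/cBy replicate 1 was 0.01, and what sets that array apart for this family was not tested.

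Without Balb/cBy replicate 1, only 5 of the 10 members were lower, and the median of the 9 beside Acads was 0.0012 in place of -0.16. Without Balb/c replicate 3, the highest array for Acadm, Acadl, Acadsb and Acad11, that median was -0.05. With both left out, 4 of the 10 were lower. The Acads difference lay between -0.73 and -0.57 whichever array was left out, and was -0.64 without both arrays. It was -0.72 when quantile normalization was run again.

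**Figure D3:**
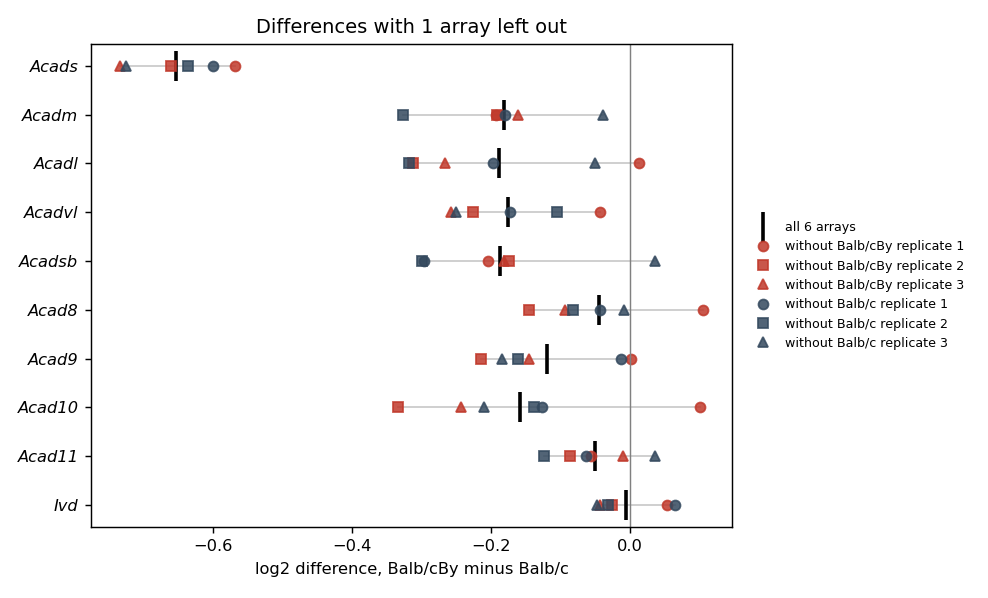
Log2 difference, Balb/cBy minus Balb/c, of each gene with all 6 arrays (black bar) and with 1 array left out (red, a Balb/cBy array; blue, a Balb/c array; shape, its replicate number). Acads stays between -0.73 and -0.57, while Acadl, Acad8, Acad9, Acad10 and Ivd cross 0 without Balb/cBy replicate 1, Acadsb and Acad11 without Balb/c replicate 3, and Ivd also without Balb/c replicate 1.

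Since arrays shifted several members together, Acads was also set against each other member on the same array, as the log2 ratio of their signals. The ratio of Acads to Acadvl was 0.39, 0.21 and 0.30 in Balb/cBy, against 0.88, 0.67 and 0.79 in Balb/c. With Ivd it was 0.24, 0.26 and 0.38 in Balb/cBy, against 0.91, 1.03 and 0.89 in Balb/c. Both ratios parted the groups, by -0.48 and -0.65. The other 7 ratios were also lower on average in Balb/cBy, and the 9 differences ran from -0.65 to -0.47. Each is the Acads difference less that of the other member. All 9 therefore had to be lower, since no other member was as low as Acads. Groups did not overlap in 6 of the 9, those with Acadvl, Acad8, Acad9, Acad10, Acad11 and Ivd, each with an exact permutation p of 0.1 and 0.15 after Benjamini-Hochberg adjustment over the 9. The 9 ratios share the same Acads values, and no permutation p, adjusted or not, could fall under 0.1. Groups overlapped for Acadm, Acadl and Acadsb, where Balb/c replicate 3 fell among the Balb/cBy arrays. Over all genes, 88.5% of such ratios with Acads were lower in Balb/cBy without overlap, so the share among the family was not above the background.

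Genes of the steps joined to the dehydrogenases did not pass limma in either direction (0 of 51 measured genes, 0.0% of all probe sets), with 35 of the 51 lower, against 50.9% of all genes, and a median of -0.05. Without Balb/cBy replicate 1 the count was 22 of 51, with a median of 0.0094. All 9 genes of the later steps of mitochondrial β-oxidation were lower by small amounts, from -0.15 to -0.0052. Balb/cBy replicate 1 was the lowest array in 6 of these 9, and without it 4 were lower: Hadh, Hadha, Acat1 and Decr1. Hadhb, the beta subunit of the trifunctional protein, lay under the olfactory receptor level on every array. Hadh, the short-chain hydroxyacyl-CoA dehydrogenase that acts after Acads, read 12.83, 12.97 and 12.80 in Balb/cBy, against 13.04, 12.96 and 13.03 in Balb/c, a difference of -0.14 ± 0.09 (SE, n = 3 each). Hadha, the alpha subunit of the trifunctional protein, differed by -0.15 ± 0.11 (SE) and Eci2, an enoyl-CoA isomerase, by -0.09 ± 0.16 (SE). In the carnitine shuttle 4 of 6 genes were lower (median -0.08), led by the carnitine carrier Slc25a20 at -0.22 ± 0.16 (SE). Slc22a5, the carnitine importer, differed by -0.09 ± 0.12 (SE) and Acsl5, an acyl-CoA synthetase, by -0.11 ± 0.16 (SE). Of 2 measured genes of ketone body synthesis both were lower, Bdh1 by -0.15 ± 0.17 (SE) and Acat1 by -0.05 ± 0.16 (SE).

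The proteins that carry electrons and flavin for the family showed no common direction, with 3 of 7 lower and a median of 0.01. Etfa, a subunit of electron transfer flavoprotein, read 10.26, 10.61 and 10.70 in Balb/cBy, against 10.69, 10.56 and 11.05 in Balb/c. Its groups overlapped, with Balb/cBy replicate 1 lowest and Balb/c replicate 3 highest, as in Acadl. The flavin-making enzymes Rfk, riboflavin kinase, and Flad1, FAD synthase, differed by 0.23 ± 0.19 and 0.12 ± 0.10 (SE). Of the partners of Acad9 in complex I assembly, 1 of 5 was lower (median 0.02), with Tmem186 at 0.10 ± 0.09, Ecsit at 0.09 ± 0.13 and Ndufaf1 at -0.07 ± 0.16 (SE).

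Around the branched-chain enzymes, 10 of 12 genes were lower, with a median of -0.06, and Hibch had the largest difference. Hibch, the hydroxyisobutyryl-CoA hydrolase that acts after Acad8 on the valine pathway, read 8.41, 8.41 and 8.57 in Balb/cBy, against 8.74, 8.65 and 9.30 in Balb/c. The groups did not overlap, where 3.51% of all genes were lower without overlap. Balb/c replicate 3 stood high, and the difference was -0.43 ± 0.17 (SE, n = 3 each, limma adjusted p = 0.999). Hsd17b10, a dehydrogenase after Acadsb on the isoleucine pathway, was higher without overlap, where 4.32% of all genes were. It read 10.83, 10.97 and 10.88 in Balb/cBy, against 10.76, 10.59 and 10.71 in Balb/c, a difference of 0.21 ± 0.09 (SE, n = 3 each; limma adjusted p = 0.999). Dld, the lipoamide dehydrogenase shared by the branched-chain and other ketoacid complexes, differed by -0.34 ± 0.16 (SE).

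Related flavoenzymes outside the 10 genes differed by no more than 0.13 in size. Gcdh, glutaryl-CoA dehydrogenase of lysine breakdown, differed by -0.07 ± 0.12 (SE), and the peroxisomal oxidases Acox2 and Acox3 by -0.08 ± 0.11 and 0.13 ± 0.13 (SE). Acad12, the gene next to Acad10 on chromosome 5, lay under the olfactory receptor level on all arrays and differed by -0.04 ± 0.09 (SE). Of 7 genes that handle short acyl groups, 4 were lower (median -0.05). Among them Acss2, the cytosolic acetyl-CoA synthetase, differed by -0.26 ± 0.18, the glycine conjugating enzyme Glyat by -0.18 ± 0.19 and Acsm1, a medium-chain acyl-CoA synthetase, by 0.08 ± 0.10 (SE).

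**Figure D4:**
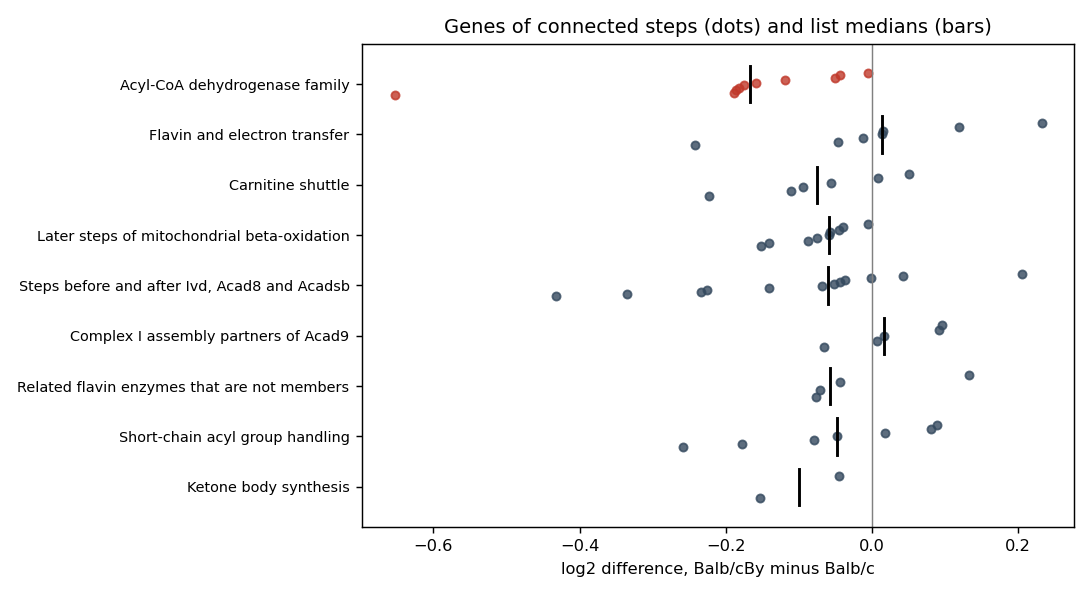
Log2 difference, Balb/cBy minus Balb/c, of each gene (dots) in the acyl-CoA dehydrogenase family (red) and in lists of connected steps (blue), with the list median as a bar. Acads at -0.65 is the lowest dot, followed by Hibch at -0.43.

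The genes beside Acads on chromosome 5 did not share its difference. Of the 5 protein-coding genes on each side in the RefSeq order, 8 were measured: 3 were lower, 5 higher and 0 passed limma, with a median of 0.02. Unc119b, a lipid-binding trafficking protein and the nearest measured gene, read 9.31, 9.46 and 9.61 in Balb/cBy, against 9.77, 9.66 and 9.03 in Balb/c, and its groups overlapped. On the other side Sppl3, an intramembrane protease, read 9.46, 9.62 and 9.50 in Balb/cBy, against 9.50, 9.64 and 9.35 in Balb/c. Their differences were -0.03 ± 0.19 and 0.03 ± 0.11 (SE, n = 3 each). Mlec, an ER lectin, had the largest at 0.25 ± 0.17 (SE). Oasl1, of the oligoadenylate synthetase-like family, differed by 0.18 ± 0.08 (SE) and was the 1 neighbour without overlap between the groups. Over all genes, 4.32% were higher without overlap. The lowest was 2210016L21Rik at -0.16 ± 0.10 (SE), and Cabp1, Pop5 and Rnf10 differed by 0.01 ± 0.15, 0.08 ± 0.26 and -0.01 ± 0.10 (SE).

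**Figure D5:**
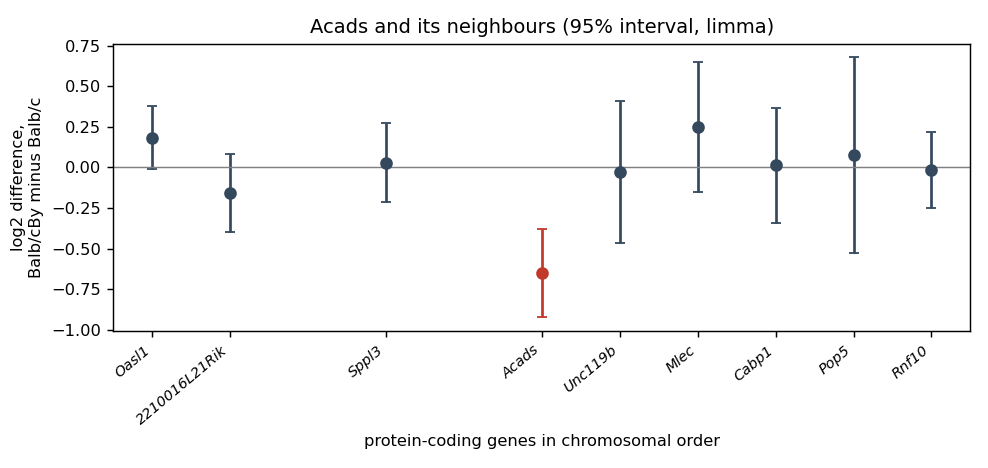
Log2 difference, Balb/cBy minus Balb/c, with limma's 95% interval, of Acads (red) and of the protein-coding genes on either side (blue) in chromosomal order, drawn where a probe set with 1 symbol exists. The interval of Acads lies below 0, and those of all 8 measured neighbours include 0.

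Likeness to Acads was measured as the mean absolute difference between 2 genes' log2 profiles over the 6 arrays, each taken from the gene's own mean. The 5 nearest of 22179 genes were Gm4129, Olfr1328, Trim34a, 4921528I07Rik and Mir99a, at 0.11 to 0.12 log2 units. All 5 had means under the olfactory receptor level in both groups, so their signals may not be told from background. Among the family Acadvl was nearest, at 0.24 and rank 824, followed by Acad9 at 0.27 and Acad10 at 0.28. Acadsb was farthest at 0.35, beyond the 0.33 of the median gene.

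Of 32 measured markers of cell types other than hepatocytes, 0 passed limma, 15 were lower and 17 higher in Balb/cBy. Groups did not overlap in 4 that were higher and 1 that was lower, against 4.32% and 3.51% of all genes. The stellate cell marker Dcn, the neutrophil markers S100a8 and Retnlg and the B cell marker Jchain were higher without overlap between the groups, by 0.48 ± 0.14, 0.29 ± 0.12, 0.40 ± 0.11 and 1.12 ± 0.28 (SE, n = 3 each). Jchain read 7.44, 8.31 and 8.70 in Balb/cBy, against 7.09, 6.91 and 7.10 in Balb/c. Cd79a, the other measured B cell marker, was lower without overlap, at -0.17 ± 0.10 (SE, n = 3 each). The summed B cell level, 8.25 to 9.09 in Balb/cBy and 8.08 to 8.11 in Balb/c, therefore followed Jchain. S100a8, Retnlg and Cd79a had means under the olfactory receptor level in both groups, as did Jchain in Balb/c. These signals may not be told from background. S100a9, the 1 neutrophil marker with a mean above that level, differed by -0.0018 ± 0.22 (SE, n = 3 each). The summed level of the 4 stellate cell markers ran from 12.70 to 13.11 in Balb/cBy and from 12.35 to 12.78 in Balb/c. All 4 were higher, Col1a1 by 0.0053. The 4 markers of sinusoidal endothelium were also all higher, and the 3 of T cells and the 3 measured of pancreatic acinar cells all lower. Over all genes, 50.9% were lower. Cd3d and Cd3g of T cells and Prss2 of acinar cells had means under the olfactory receptor level in both groups. Their signals, too, may not be told from background. The summed level of the 3 neutrophil markers ran from 9.03 to 9.67 in Balb/cBy and from 9.06 to 9.40 in Balb/c, and that of the Kupffer cell markers from 12.50 to 12.97 in Balb/cBy and from 12.13 to 13.02 in Balb/c. The part of these markers in the Acads difference was not tested.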

How the data were processed

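The deposited table holds log2 values of 41345 probe sets on 6 arrays, made by the authors with RMA (background correction, quantile normalization, probe set summary), per the submitters' processing notes; software and build are not given in the sources used here. RMA compresses low signals, so differences of dim genes are understated. Per the labels, 500 ng of RNA went to each array, and groups follow the titles.

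The 23521 probe sets with 1 symbol in the platform annotation were fitted with limma 3.58.1 in R 4.3.3, with group as the single term, empirical Bayes moderation, two-sided tests and Benjamini-Hochberg adjustment over all of them (threshold 0.05). The fit was tested on simulated data. The simulated differences were larger than that of Acads, and no array was shifted for many genes together, so that check covers neither case. Genes with several probe sets are read from the one with the highest mean. Single values were also tested by exact permutation of the arrays (scipy 1.17.1). The number of arrays limits the precision, and p-values measure the spread between these mice.

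The genes, lists and tests were chosen with earlier results of these data known. All 10 members are named, with up to 3 genes of smallest p in each list of connected steps, the measured neighbours of Acads and the 5 genes nearest to it in profile. The ratios to Acads, the motifs and the olfactory receptor level were added after values were seen. Promoter windows are from RefSeq (GRCm38.p6); motifs were searched on both strands in the 250 bases before the start. Alternatives covered moderation, array weights, normalization, dim probe sets, the probe sets tested, the replicate block and left-out arrays.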

Additional observations from a re-analysis of the deposited data

How the results depend on the processing

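Members called numbered 0 under all 16 alternatives run. The Acads difference kept its direction in all 16, from -0.73 to -0.57 when 1 array was left out, with limma adjusted p from 0.121 (array weights) to 1.0. Only the changes of normalization could have turned its sign. Its groups do not overlap, so leaving out or weighting arrays could not. Moderation, the replicate block and the choice of probe sets leave this difference at -0.65 by construction. Probe sets called numbered 0 with all arrays, 31 with array weights, 16 without Balb/cBy replicate 1 and Balb/c replicate 3, and 0 to 4 with 1 array left out (4 without Balb/cBy replicate 1, 2 without Balb/c replicate 3). Members lower numbered 10, against 5 to 10 with 1 array left out and 4 without both arrays. Without both arrays these turned sign: Acadl 0.15, Acadsb 0.020, Acad8 0.14, Acad10 0.050, Acad11 0.032 and Ivd 0.011. Acad8 turned to 0.029 with array weights and Ivd to 0.0041 with median centring. With 1 array left out, differences ran from -0.32 to 0.014 for Acadl, -0.30 to 0.037 for Acadsb, -0.15 to 0.11 for Acad8, -0.21 to 0.0012 for Acad9, -0.33 to 0.10 for Acad10, -0.12 to 0.037 for Acad11 and -0.048 to 0.065 for Ivd. The cause was not tested. Acadm and Acadvl kept their direction under all 16 but not their size, from -0.33 to -0.038 (without Balb/c replicate 3) and from -0.26 to -0.043 (without Balb/cBy replicate 1). With 1 array left out, a check chosen after seeing the data, 22 to 39 of the 51 connected genes and 4 to 9 of the 9 later β-oxidation genes were lower, the fewest without Balb/cBy replicate 1. Each member had 1 probe set, so the alternative of other probe sets gave no value. Same-numbered arrays did not deviate together (Pearson r across probe sets -0.32, -0.19 and -0.23 for numbers 1, 2 and 3), and no array correlated best with its own number. With the replicate block 0 probe sets were called. The Acads difference was -0.65, as it must be with 1 array of each group per number. Background correction could not be varied on summarized values, and signal over background was not measured.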
